A study of Mus musculus with 6 samples.

Results

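The genes described here are those of the unfolded protein response and of its ATF4 arm, 36 gene symbols set beside each other as chaperones of the ATF6 and XBP1 branches and as factors and targets of ATF4 and CHOP. They were taken by symbol from a table of 22322 genes and matched 37 of its entries, because Ddit3 is listed under 2 identifiers. The second Ddit3 entry had 0 counts in every library and was not tested, so each of the 36 symbols was tested through 1 entry, among 13161 genes tested in all.

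RNA was sequenced from wild-type (WT) mouse neural stem progenitor cells, the dividing precursors of neurons, astrocytes and oligodendrocytes. PTN cells had received PTN and were collected at 24 h, and Control cells had received PBS, the buffer without PTN, and were collected at the same time, with 3 libraries in each group. PTN is given only as an abbreviation and is read here as pleiotrophin, a secreted heparin-binding growth factor, and no amount is stated for it. The series title speaks of PTN added to conditioned medium, while the labels give treatment only as PTN or PBS, and they enter the cells under cell line with no source animal. The labels do not say whether replicates are separate cultures, so a p-value reflects the spread among these 3 libraries a group, which may be technical. The libraries did differ in Y-linked RNA, with Ddx3y, Eif2s3y, Kdm5d and Uty summing to 30.3, 74.2 and 7.96 CPM in PTN 1, PTN 2 and PTN 3, against 49.3, 102 and 80.3 CPM in Control 1, Control 2 and Control 3.

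When unfolded proteins build up in the endoplasmic reticulum (ER), the sensors IRE1, PERK and ATF6 are activated. IRE1 splices the Xbp1 transcript, ATF6 is cut free from the membrane, and together XBP1 and ATF6 raise chaperones, oxidoreductases and the machinery of ER-associated degradation. PERK phosphorylates the initiation factor eIF2, which slows translation in general but favours translation of ATF4, a factor that other eIF2 kinases can also raise when amino acids or haem run short. ATF4 drives amino acid synthesis and import together with the factors CHOP and ATF3. Much of this control acts on splicing, cleavage and translation, which counts per gene do not show.

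Expected counts summed to between 19267764 and 25975205 in the PTN libraries and between 21268297 and 26341745 in the Control libraries. The cells carried the markers of their label, with 10 progenitor genes summing to between 10500 and 11400 CPM (counts per gene scaled by library size) in PTN and between 7590 and 8720 CPM in Control libraries. Of 6 astrocyte genes 3 were called lower in PTN cells and 0 higher by the test given below, and together the 6 reached 1070, 3660 and 1170 CPM in PTN 1, PTN 2 and PTN 3, against 5950, 6170 and 6000 CPM in Control 1, Control 2 and Control 3. Marker sums for neurons were 298 to 503 CPM in PTN and 252 to 383 CPM in Control, and for the oligodendrocyte lineage 392 to 520 CPM in PTN and 492 to 590 CPM in Control. Within that lineage 2 of 6 tested genes were called lower in PTN cells, Pdgfra 3.9-fold and Cspg4 1.81-fold. Of the progenitor genes 2 were called higher, Egfr 1.76-fold and Vim 1.5-fold, and of 4 tested fibroblast genes 1 was called lower, Pdgfrb 5.62-fold. Marker sums for microglia, endothelial cells and fibroblasts lay between 1.56 and 11.2 CPM in every library, and 1 of 7 microglial genes was abundant enough to test. In these bulk samples fewer cells of a type and less RNA per cell cannot be told apart, and the part of these marker differences in the results below was not tested.

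The comparison asks how this response differs between cells given PTN and Control cells. In PTN cells 3 members rose, all on the ATF4 side: Nupr1 2.38-fold, Vldlr 2.27-fold and Ddit3, which encodes CHOP, 1.83-fold. None of the 15 chaperones was called in either direction, and no member was called lower. Calls are made with the quasi-likelihood test of edgeR at 0.05, after Benjamini-Hochberg adjustment over all tested genes. The 3 called members are 8.33% of the 36, close to the 7.99% called among all tested genes, made up of 4.93% higher and 3.06% lower in PTN. Before adjustment 9 members were higher and 3 lower at 0.05 in edgeR, where 27% of all tested genes passed. The 3 PTN values did not overlap the 3 Control values in 16 members, 44.4% of them, against 32.9% of all tested genes. The median log2 fold change of the 36 was 0.094 and that of all tested genes 0.03.

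**Figure D1:**
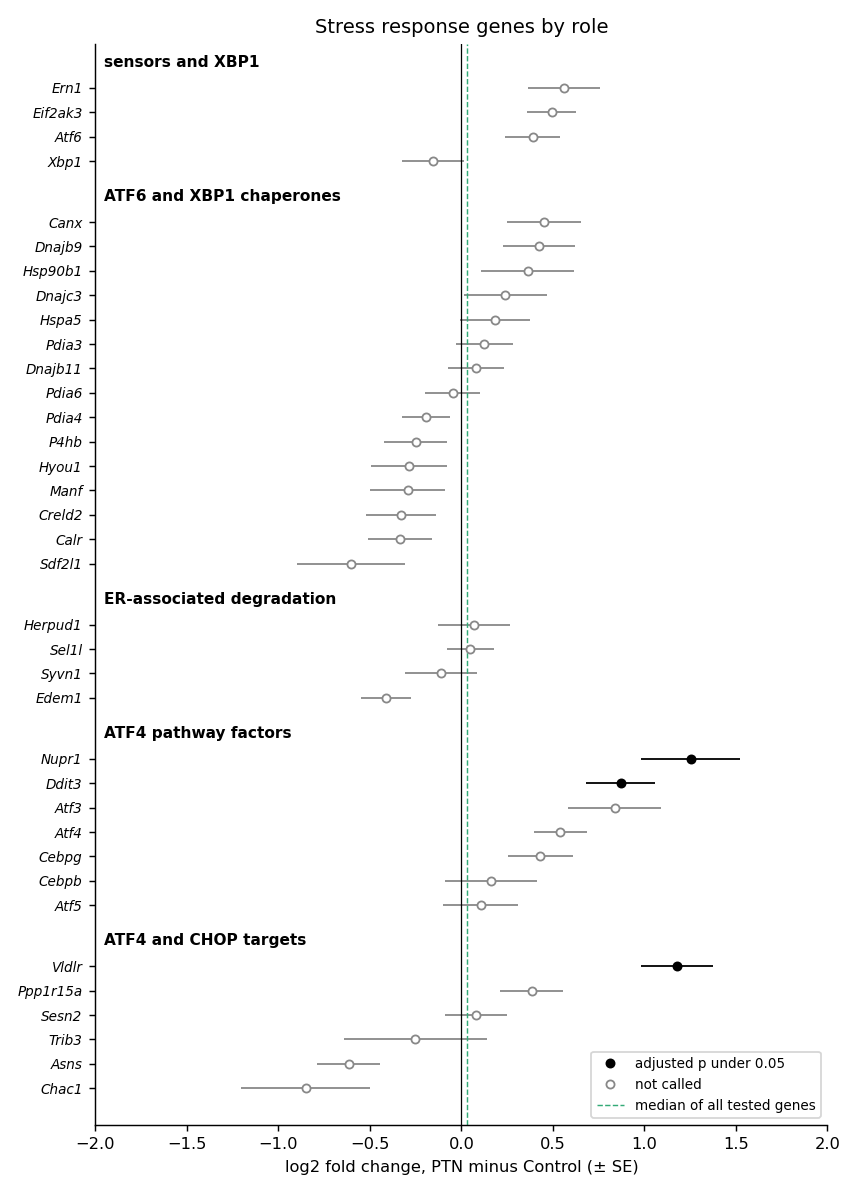
Log2 fold change of each of the 36 genes, PTN minus Control, with its standard error, grouped by role and ordered within each role. Filled points, which are Nupr1, Ddit3 and Vldlr, have an adjusted p under 0.05, and the dashed line is the median of all tested genes at 0.03.

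The sensors came out above Control in every PTN library without being called. Eif2ak3, which encodes PERK, had 74.9, 67.5 and 78.0 CPM in PTN cells, against 51.9, 49.5 and 55.0 CPM in Control cells. Its log2 fold change was 0.49 ± 0.13 (SE, edgeR adjusted p = 0.0596). Ern1, which encodes IRE1, had 20.5, 13.8 and 19.5 CPM in PTN against 13.0, 11.1 and 12.3 CPM in Control cells, with PTN 2 closest to the Control libraries. Its log2 fold change was 0.56 ± 0.20 (SE, edgeR adjusted p = 0.116). Without any 1 library in turn the edgeR adjusted p ran from 0.0409, without PTN 2, to 0.297. Atf6 had 85.7, 90.6 and 75.4 CPM in PTN against 55.7, 68.1 and 68.2 CPM in Control cells (log2 fold change 0.39 ± 0.15, edgeR adjusted p = 0.143). These are long transcripts, and with the trend of fold change with length removed (see the length plot) their log2 values were 0.33 for Eif2ak3, 0.33 for Ern1 and 0.11 for Atf6.

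Xbp1, the transcription factor gene that IRE1 splices and that the pathway itself raises, came out near its Control level. It had 44.5, 35.6 and 51.3 CPM in PTN cells, against 53.3, 44.1 and 49.0 CPM in Control cells, and the groups overlapped (log2 fold change -0.16 ± 0.17, edgeR adjusted p = 0.561). Spliced and unspliced Xbp1 are counted together in these values.

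The chaperones divided almost evenly around no change. Of 15, all tested, 7 had a positive and 8 a negative log2 fold change, from -0.60 for Sdf2l1 to 0.45 for Canx, with a median of -0.048 and adjusted p from 0.194 to 0.85 by edgeR. By edgeR 0 passed even before adjustment, and DESeq2 and limma-voom also called 0. Together they took 5770, 4790 and 5180 CPM in PTN 1, PTN 2 and PTN 3, against 4970, 5330 and 5170 CPM in Control 1, Control 2 and Control 3, so the sums of the groups overlapped. In only 3 of them, Sdf2l1, Calr and Pdia4, did the PTN and Control values not overlap, and in each the PTN values were the lower.

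Hspa5, which encodes BiP, the chief ER chaperone and the usual readout of the pathway, had 729, 511 and 616 CPM in PTN cells, against 444, 621 and 568 CPM in Control cells. The groups overlapped widely, and the log2 fold change was 0.19 ± 0.19 (SE, edgeR adjusted p = 0.536). Hsp90b1, the ER form of HSP90, had 935, 704 and 527 CPM in PTN against 407, 683 and 594 CPM in Control cells (log2 fold change 0.36 ± 0.25, edgeR adjusted p = 0.368). In both genes Control 1 was the lowest and PTN 1 the highest of the 6 libraries. Their helpers had overlapping groups. Dnajb9, a BiP cochaperone that restrains IRE1, averaged 39.1 ± 5.39 CPM in PTN and 29.1 ± 6.23 CPM in Control cells (SD, n = 3 each). Dnajc3, a cochaperone that also inhibits PERK, averaged 93 ± 22 CPM in PTN and 78.8 ± 17.7 CPM in Control cells. Dnajb11, another BiP partner, averaged 104 ± 14.8 CPM in PTN and 98.1 ± 5.6 CPM in Control cells.

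Hyou1, the nucleotide exchange factor of BiP, had 147, 114 and 197 CPM in PTN cells, against 208, 163 and 187 CPM in Control cells. Sdf2l1, a small partner of the BiP cycle, had 10.1, 5.31 and 11.7 CPM in PTN against 16.9, 12 and 12.1 CPM in Control cells. Every PTN value of Sdf2l1 lay below every Control value, but PTN 2 stood far below the other PTN libraries and the change was not called (log2 fold change -0.60 ± 0.29, edgeR adjusted p = 0.222). Creld2 and Manf, secreted proteins of the response, averaged 28.6 ± 6.37 and 126 ± 33.2 CPM in PTN cells and 36 ± 2.69 and 155 ± 12.9 CPM in Control cells. Some counts of Manf were deposited as fractions.

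The lectin chaperones had log2 fold changes of opposite sign. Calr, which encodes the soluble calreticulin, had 853, 702 and 935 CPM in PTN cells, against 1210, 935 and 996 CPM in Control cells. Canx, which encodes its membrane-bound relative calnexin, had 937, 808 and 660 CPM in PTN against 452, 685 and 622 CPM in Control cells. Neither was called, with log2 fold changes of -0.33 ± 0.17 for Calr and 0.45 ± 0.20 for Canx (edgeR adjusted p = 0.245 and 0.194). Per gene length, Calr was the most abundant member, at 379 ± 52.7 FPKM (fragments scaled for length and depth) in PTN and 480 ± 67.7 FPKM in Control cells, and Canx had 211 ± 35.9 FPKM in PTN and 155 ± 31.0 FPKM in Control cells (SD, n = 3 each).

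The log2 fold changes of the protein disulfide isomerases lay between -0.25 for P4hb and 0.13 for Pdia3. Pdia4 had 262, 265 and 292 CPM in PTN cells against 316, 310 and 310 CPM in Control cells (log2 fold change -0.19 ± 0.13, edgeR adjusted p = 0.354). P4hb, the founding member of the family, averaged 558 ± 84.9 CPM in PTN and 663 ± 92.3 CPM in Control cells (SD, n = 3 each). Pdia3, which works with calreticulin and calnexin, averaged 593 ± 42.7 CPM in PTN and 543 ± 66.9 CPM in Control cells. Pdia6 averaged 297 ± 40.8 CPM in PTN and 307 ± 15.6 CPM in Control cells.

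The lowest and highest chaperone values came mostly from PTN 1, PTN 2 and Control 1. PTN 2 was the lowest of the 6 libraries for 8 of the 15, which were Hyou1, Dnajb11, Sdf2l1, Calr, Pdia6, P4hb, Creld2 and Manf. It was lowest for 22.2% of all tested genes. Control 1 was lowest for 6 others, Hspa5, Hsp90b1, Dnajb9, Dnajc3, Canx and Pdia3, and for 30% of all tested genes. Control 1 was also the highest library for 7 chaperones and PTN 1 for 5, counts for which no share over all tested genes was taken. Relative to the Control mean, the median chaperone stood at 0.065, -0.24 and 0.007 on the log2 scale in PTN 1, PTN 2 and PTN 3, and between -0.0097 and 0.021 in the Control libraries. PTN 2 also held the most astrocyte marker RNA of the PTN libraries, as given above, and what part this had was not tested. Without PTN 2 the median log2 fold change of the chaperones was 0.062, against -0.048 with it, and no chaperone was called either way.

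**Figure D2:**
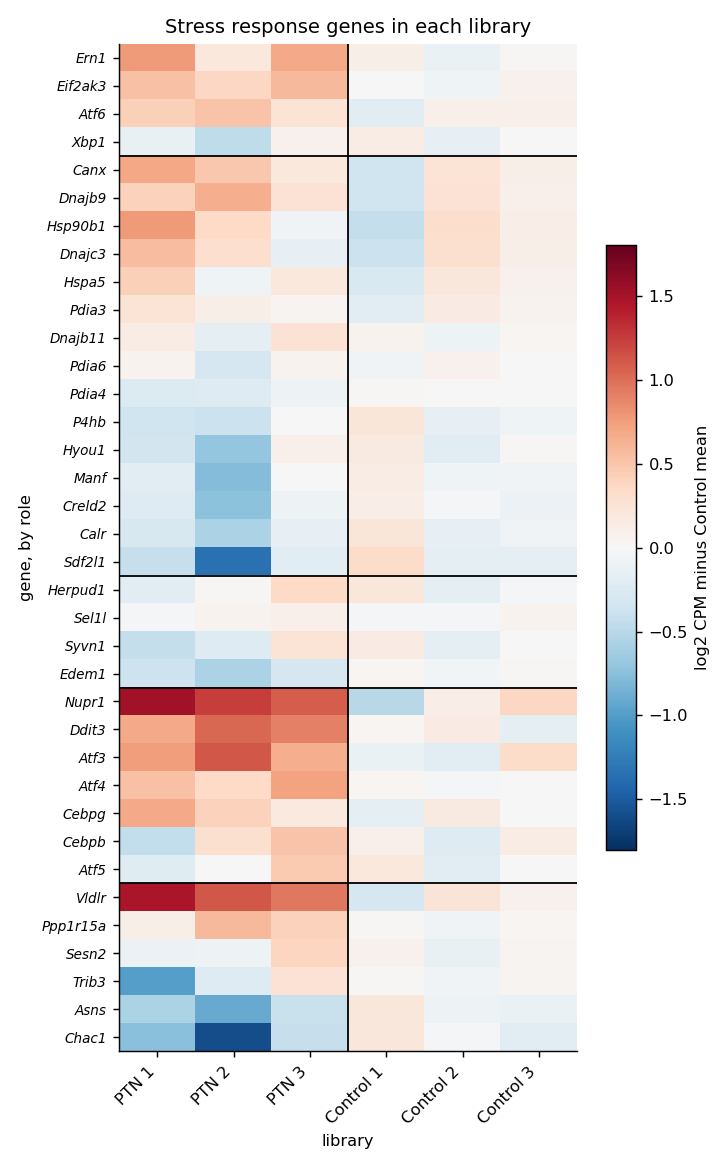
Level of each gene in each library as log2 CPM minus the mean of the 3 Control libraries, with genes in rows by role and libraries in columns. Nupr1, Ddit3 and Vldlr are high in all 3 PTN libraries, while the chaperone block holds high and low values in both groups, among them the low PTN 2 values of Sdf2l1, Hyou1, Creld2 and Manf and the high PTN 1 values of Hsp90b1 and Canx.

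A promoter element bound by ATF6 or XBP1 was found in 7 of the 13 chaperones with a promoter window. These genes were listed as chaperones of those factors, so its frequency among them is not independent of the choice. The ER stress response element (ERSE), 19 bases long, pairs a CCAAT end, bound by NF-Y, with a CCACG end, bound by ATF6 or XBP1, with any bases between them. RefSeq promoter windows of build GRCm38.p6 were available for 33 of the 36 members, and were not used for Atf6, Hyou1 and Manf. The 250 bases before each start site were searched on both strands for exact matches. ERSE was found in 37 of 32851 windows, or 0.113%, and in 8 members, 7 of them chaperones and the other Syvn1. The elements are shown because genes that carry the same letters had log2 fold changes of both signs, and binding was not measured. Each is written on the gene's own strand with the fixed letters of both ends in capitals, and an element on the other strand reads CGTGG before ATTGG.
Hspa5: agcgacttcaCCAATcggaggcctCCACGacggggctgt
Pdia6: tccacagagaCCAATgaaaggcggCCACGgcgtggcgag
Dnajc3: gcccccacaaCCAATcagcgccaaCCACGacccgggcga
Canx: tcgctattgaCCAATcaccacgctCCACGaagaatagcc
Hsp90b1, outer: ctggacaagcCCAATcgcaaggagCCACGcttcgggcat
Hsp90b1, inner: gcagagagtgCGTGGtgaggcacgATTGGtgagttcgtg
Calr: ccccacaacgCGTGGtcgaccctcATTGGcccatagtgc
Creld2: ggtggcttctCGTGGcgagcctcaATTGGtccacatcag
Syvn1: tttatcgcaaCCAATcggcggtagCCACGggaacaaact

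The element of Hspa5 began 65 bases before the start site, in the stretch shown from chr2:34772015-34772053 on the plus strand. That of Calr began 162 bases before it, at chr8:84847065-84847103 on the minus strand, and that of Canx 145 bases before it, at chr11:50325790-50325828 on the minus strand. Hsp90b1 held a pair of them, beginning 212 and 107 bases before its start site. The 7 chaperones with an exact ERSE had 4 positive and 3 negative log2 fold changes and a median of 0.18, from -0.33 for Calr to 0.45 for Canx. The 6 others with a promoter window had 3 positive and 3 negative ones and a median of -0.056, from -0.60 for Sdf2l1 to 0.43 for Dnajb9. No exact match says only that these letters are not in the window.

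ER-associated degradation carries misfolded proteins back to the cytosol for destruction, and of its 4 members 0 were called by edgeR or DESeq2, while 1 had an unadjusted p under 0.05. Edem1, a lectin that picks out misfolded glycoproteins, had 43.2, 37.4 and 45.2 CPM in PTN cells, against 57.0, 53.9 and 56.3 CPM in Control cells. All PTN values were below all Control values (log2 fold change -0.41 ± 0.14, edgeR adjusted p = 0.104, and -0.65 with an adjusted p of 0.0475 once the length trend was removed). Without any 1 library in turn the edgeR adjusted p of Edem1 ran from 0.0634 to 0.241. Sel1l and Syvn1 encode the adaptor and the ubiquitin ligase of the main degradation complex. Sel1l averaged 193 ± 7.91 CPM in PTN and 187 ± 7.0 CPM in Control cells, and Syvn1 35.9 ± 8.94 CPM in PTN and 38.8 ± 4.05 CPM in Control cells (SD, n = 3 each). Herpud1, which gathers that complex, averaged 17.0 ± 3.32 CPM in PTN and 16.2 ± 2.09 CPM in Control cells. Its promoter held the compact element ERSE-II (ATTGG, any base, then CCACG, 11 bases in all, in 0.0304% of all windows) 52 bases before the start site, shown here with the fixed letters in capitals because Herpud1 was its only match among the members.
Herpud1: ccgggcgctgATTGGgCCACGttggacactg

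The factors of the ATF4 arm, with Nupr1 counted among them, all had positive log2 fold changes, 7 of 7. They ran from 0.11 for Atf5 to 1.25 for Nupr1, with a median of 0.54. Of these 2 were called, Nupr1 and Ddit3. Among all 13161 tested genes 6915 were positive. Atf4 itself had 120, 107 and 137 CPM in PTN cells, against 85.4, 81.5 and 83.0 CPM in Control cells. The groups did not overlap and the Control values were nearly equal, and the log2 fold change was 0.54 ± 0.14 (SE), but the adjusted p of 0.0547 in edgeR missed the threshold. It was 0.0231 with the length trend removed, 0.0401 without PTN 2 and 0.00958 by DESeq2. Without any 1 library in turn the edgeR adjusted p ran from that 0.0401 up to 0.221, and limma-voom did not call Atf4.

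Ddit3 encodes CHOP, the factor that links lasting ER stress to cell death. It had 10.2, 13.0 and 12 CPM in PTN cells, against 6.55, 7.03 and 5.62 CPM in Control cells. Every PTN library was higher than every Control library, by 0.87 ± 0.19 on the log2 scale (SE, edgeR adjusted p = 0.0281). The adjusted p was 0.0507, 0.104, 0.0931 and 0.162 without PTN 2, Control 1, Control 2 and Control 3 in turn. Its exons overlap on the opposite strand those of Mars1, a tRNA synthetase gene, and no source says whether counting used strand. Mars1 had 75.2, 71.0 and 113 CPM in PTN cells, against 112, 92.5 and 100 CPM in Control cells, and was not called (edgeR adjusted p = 0.454).

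Nupr1 encodes a small stress-induced chromatin protein. It had 8.23, 6.82 and 6.14 CPM in PTN cells, against 2.03, 3.13 and 3.74 CPM in Control cells, the largest positive change among the members. The log2 fold change was 1.25 ± 0.27 (SE, edgeR adjusted p = 0.0276). Without PTN 1, Control 1, Control 2 and Control 3 in turn the adjusted p was 0.0887, 0.0942, 0.0915 and 0.0635. Atf3, an early factor of many stresses, was at a similar low level, with 4.89, 6.29 and 4.58 CPM in PTN against 2.66, 2.52 and 3.65 CPM in Control cells. Its groups did not overlap either, but it was not called (log2 fold change 0.84 ± 0.25, edgeR adjusted p = 0.078).

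The C/EBP partners of ATF4 and its relative Atf5 had smaller log2 fold changes. Cebpg, the usual dimer partner of ATF4, had 44.1, 36.5 and 30.9 CPM in PTN cells, against 24.4, 30.6 and 27.7 CPM in Control cells (log2 fold change 0.43 ± 0.18, edgeR adjusted p = 0.163). Cebpb averaged 18.8 ± 5.91 CPM in PTN and 16.8 ± 2.23 CPM in Control cells (SD, n = 3 each). Atf5, which is translated under the same control as ATF4, averaged 36 ± 9.24 CPM in PTN and 33.4 ± 4.29 CPM in Control cells, from counts that were in part fractional.

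**Figure D3:**
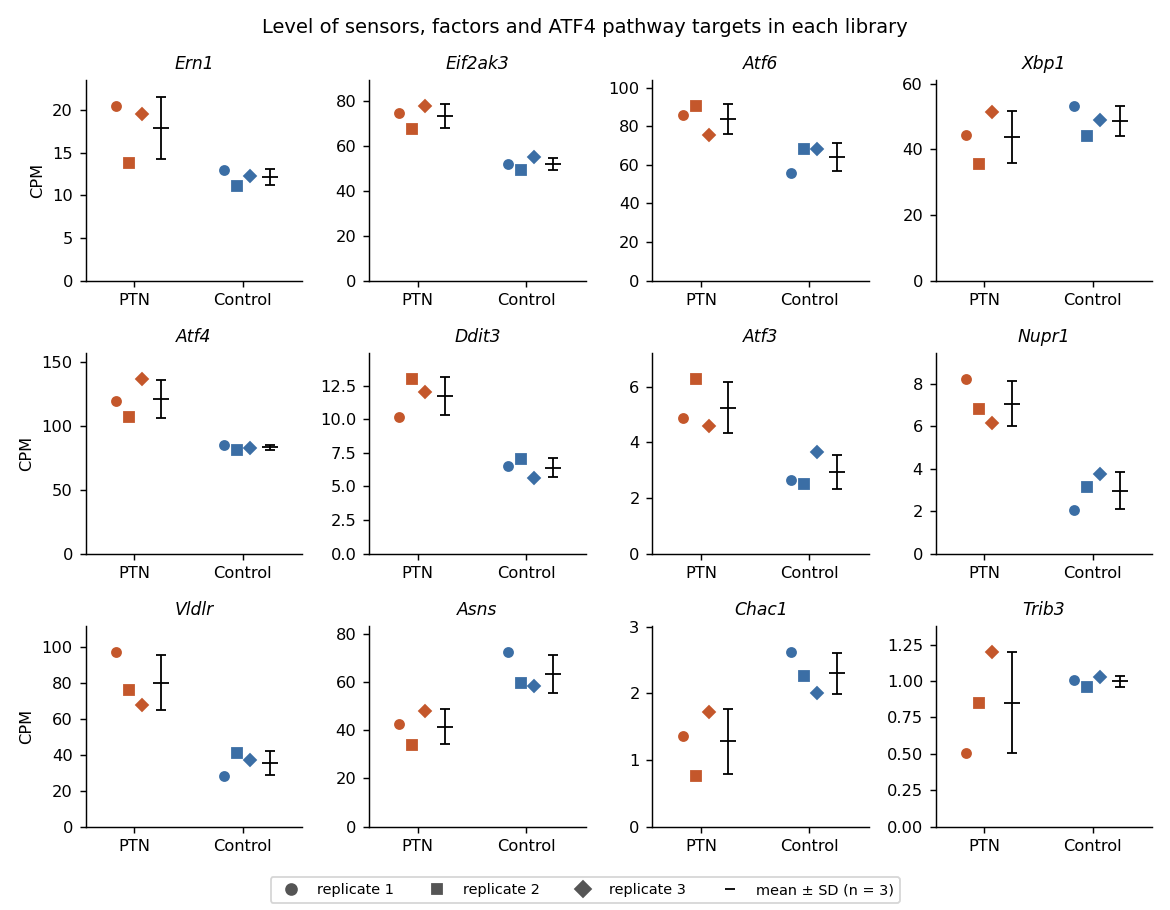
CPM in each PTN and Control library for 12 genes of the pathway, with the mean and SD of each group (n = 3) beside the points. The PTN points of Ern1, Eif2ak3, Atf6, Atf4, Ddit3, Atf3, Nupr1 and Vldlr lie above all Control points, those of Asns and Chac1 below them, and those of Xbp1 and Trib3 overlap them.

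The targets downstream of ATF4 and CHOP had values on both sides of Control. Of 6, all tested, 1 rose, 3 log2 fold changes were positive and 3 negative, and the median was -0.086. Ddit3 and Atf3, which ATF4 also drives, were grouped with the factors, with log2 fold changes of 0.87 and 0.84. Nupr1, whose promoter matched the ATF4 site described below, was grouped there too, at 1.25. This balance of signs therefore depends on the grouping. Vldlr, the VLDL receptor, which also binds reelin and is a target of ATF4, had 97.5, 76.0 and 67.7 CPM in PTN cells, against 28.4, 41.1 and 36.9 CPM in Control cells. The lowest PTN value was well above the highest Control value, and the log2 fold change was 1.18 ± 0.20 (SE, edgeR adjusted p = 0.00992, and 0.0506 without Control 3). Ppp1r15a encodes GADD34, which guides the phosphatase that restores eIF2. It had 19.0, 26.4 and 23.6 CPM in PTN cells, against 17.9, 16.9 and 18.1 CPM in Control cells, with no overlap but without a call (log2 fold change 0.38 ± 0.17, edgeR adjusted p = 0.188).

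Asns, asparagine synthetase, is among the best known ATF4 targets, and its values lay on the other side. It had 42.8, 33.7 and 47.9 CPM in PTN cells, against 72.6, 59.6 and 58.5 CPM in Control cells. The groups did not overlap (log2 fold change -0.62 ± 0.17, edgeR adjusted p = 0.0655, and 0.022 by DESeq2). Without any 1 library in turn the edgeR adjusted p of Asns ran from 0.0307 to 0.173. Chac1, a glutathione-degrading enzyme induced by ATF4, was low, with 35, 17 and 33 counts in PTN cells against 62, 59 and 43 counts in Control cells. These gave 1.36, 0.758 and 1.72 CPM in PTN and 2.62, 2.26 and 2.01 CPM in Control cells, and the difference was not called (log2 fold change -0.85 ± 0.35, edgeR adjusted p = 0.168). Trib3, the pseudokinase through which CHOP acts on AKT, had only 13, 19 and 23 counts in PTN against 24, 25 and 22 in Control cells, and its groups overlapped (log2 fold change -0.25 ± 0.39, edgeR adjusted p = 0.69). Sesn2, a leucine sensor and antioxidant gene, averaged 118 ± 23.4 CPM in PTN and 111 ± 8.45 CPM in Control cells (SD, n = 3 each).

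The DNA site of ATF4, the C/EBP-ATF response element (CARE), was searched as TGATGNAA in the same windows and on both strands. It was found in 3.45% of all windows and in 6 of the 33 members with a window, which were Nupr1, Atf3, Vldlr, Asns, Chac1 and Herpud1. Most of these were listed as factors or targets of ATF4, so its frequency among the members is not independent of the choice. Of the further genes described below, Cnpy2 and Pck2 held it too. The sites are shown because genes on both sides of the Control level carried the same letters. The fixed letters are in capitals on the gene's own strand, where a site on the other strand reads TTNCATCA.
Nupr1: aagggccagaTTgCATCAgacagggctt
Atf3: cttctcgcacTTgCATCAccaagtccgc
Vldlr: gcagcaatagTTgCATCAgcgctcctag
Chac1: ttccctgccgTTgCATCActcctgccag
Asns: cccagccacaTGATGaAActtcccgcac
Of the 5 shown, Nupr1, Atf3 and Vldlr had log2 fold changes of 1.25, 0.84 and 1.18, and Chac1 and Asns of -0.85 and -0.62. The stretch of Nupr1 lies at chr7:126625563-126625590 on the minus strand, with the site beginning 110 bases before the start site. That of Vldlr lies at chr19:27216810-27216837 on the plus strand, with the site beginning 200 bases before the downstream of its 2 start sites in the table. The stretch of Asns lies at chr6:7693215-7693242 on the minus strand, with the site beginning 23 bases before the start site. The UPR element TGACGTGG, another XBP1 and ATF6 site, was in 0.563% of windows and in 0 of the members' windows. None of the sites printed overlapped another of the 4 motifs in these windows.

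The level of Vldlr also depended on the scale used. In FPKM it averaged 13.8 ± 2.49 in PTN and 7.38 ± 1.21 in Control cells (SD, n = 3 each), a smaller contrast than in CPM. The gene length implied by the deposited count and FPKM was 5948, 5525 and 5981 bases in PTN 1, PTN 2 and PTN 3, against 4673, 4774 and 4966 bases in Control 1, Control 2 and Control 3. Cebpg showed the same, with 3958, 3682 and 4362 bases in PTN and 3186, 3428 and 3386 bases in Control cells. In FPKM the Cebpg groups overlapped, with 11.06, 9.96 and 7.08 in PTN against 7.71, 8.87 and 8.22 in Control cells. Among 32 members with at least 2 FPKM in every library, only these 2 had implied lengths that did not overlap between the groups by over 1%, and the other 30 differed by at most 0.054 on the log2 scale. Of 9854 genes with such values 4.85% did so, so 2 of 32 members is near the background. An implied length can differ between libraries where the length used in the FPKM weights the transcripts of a gene, and no source says how it was set.

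Lists of further genes of the pathway are described by their counts. Of 27 other ER folding and oxidation genes and 20 other genes of ER-associated degradation 0 were called by edgeR. Before adjustment 2 folding genes were higher and 6 lower at 0.05, with 0 and 2 of the degradation genes, and DESeq2 called 1 gene of each list lower, Cnpy2 and Edem2. By smallest p these lists were led by Cnpy2, a saposin-like ER protein (log2 fold change -0.46, edgeR adjusted p = 0.0774), and by Derl3, a derlin of the degradation channel whose promoter also held an ERSE. Derl3 averaged only 0.256 ± 0.0489 CPM in PTN and 0.751 ± 0.123 CPM in Control cells (SD, n = 3 each, edgeR adjusted p = 0.0552). The median log2 fold change was -0.13 in the folding list and 0.00 in the degradation list.

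Of 32 other tested genes of the ATF4 response 4 fell and 0 rose, with a median log2 fold change of -0.21. The 4 are 12.5% of a list chosen with earlier results known. Among all tested genes 3.06% were called lower and 4.93% higher, 7.99% in either direction. Ddit4, an inhibitor of mTORC1 that glucocorticoids and low oxygen also induce, had 63.8, 60.4 and 49.2 CPM in PTN cells, against 121, 109 and 101 CPM in Control cells. It was 1.91-fold lower (edgeR adjusted p = 0.0102), and stayed called without any 1 library, at adjusted p from 0.0132 to 0.0419. Phgdh and Psph, the first and last enzymes of serine synthesis, were 1.82-fold and 1.79-fold lower. Phgdh averaged 184 ± 38.5 CPM in PTN and 335 ± 49.9 CPM in Control cells (edgeR adjusted p = 0.0297), and Psph 43.8 ± 5.5 CPM in PTN and 78.3 ± 2.33 CPM in Control cells (SD, n = 3 each, edgeR adjusted p = 0.012). Pck2, the mitochondrial enzyme that makes phosphoenolpyruvate, was 1.77-fold lower (edgeR adjusted p = 0.0441, and 0.0511 with the length trend removed). The calls of Phgdh and Pck2 were lost without any 1 library other than PTN 3 (adjusted p from 0.0581 to 0.137), and that of Psph without Control 3 (0.0583). A further 6 genes of the list had an unadjusted p under 0.05 without a call, all of them lower, and 0 were higher. Fgf21, with at most 2 counts in a library, was not tested.

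**Figure D4:**
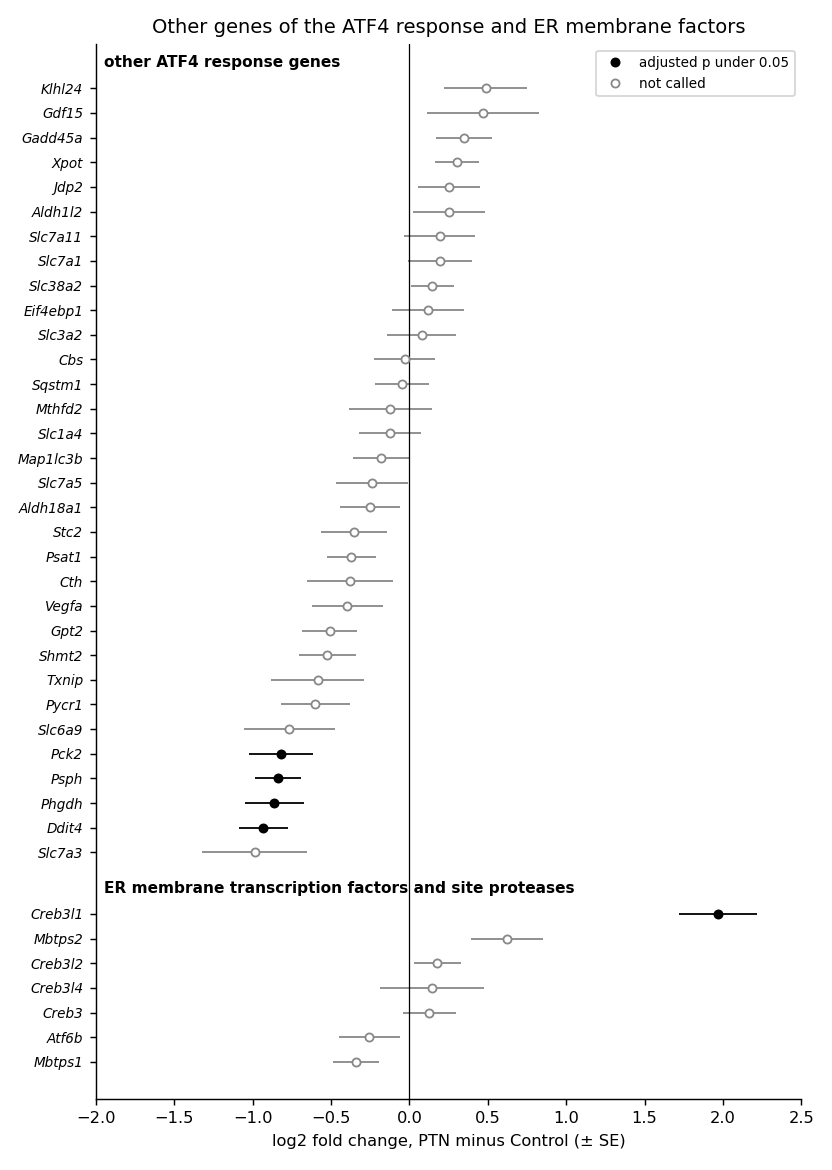
Log2 fold change, PTN minus Control, with its standard error, for 32 other genes of the ATF4 response and 7 ER membrane factors and proteases. Filled points have an adjusted p under 0.05, which are Ddit4, Phgdh, Psph and Pck2 below 0 and Creb3l1 above it.

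The tRNA synthetases, which ATF4 also raises, were close to Control, with 0 of 12 called, 5 log2 values positive and 7 negative, and a median of -0.058. The eIF2 kinases, eIF2 and its exchange factor eIF2B likewise had 0 of 14 called. Eif2b1, a subunit of eIF2B, came closest, at 38.1 ± 3.35 CPM in PTN and 51.0 ± 2.46 CPM in Control cells (SD, n = 3 each, edgeR adjusted p = 0.0983), and Sars led the synthetases (edgeR adjusted p = 0.26). At an unadjusted p under 0.05 by edgeR 0 synthetases passed, and of the eIF2 list 1 was higher and 2 were lower. DESeq2 called 0 synthetases and 1 gene of the eIF2 list, Impact, higher.

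Among the ER membrane factors built like ATF6, with the proteases that release them, 1 of 7 tested genes rose. Creb3l1, which encodes OASIS, an ER stress transducer of astrocytes, had 14.8, 22.1 and 25.4 CPM in PTN cells, against 5.83, 4.20 and 5.90 CPM in Control cells. The lowest PTN value was more than the highest Control value, and the gene was 3.91-fold higher (log2 fold change 1.97 ± 0.25 SE, edgeR adjusted p = 0.0043, and 0.00347 to 0.0251 without any 1 library). The proteases that cut ATF6 and OASIS were not called. Creb3l3 had at most 2 counts in a library and was not tested.

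Fold changes over all genes increased with gene length, and the members spanned that range. Over genes of 204 to 1775 bases the median log2 fold change was -0.18, and over genes of 4098 bases or more it was 0.26. This trend differed between libraries. As log2 deviation from each gene's mean, the short range had medians of 0.209, 0.073 and 0.05 in Control 1, Control 2 and Control 3. Its medians were -0.117, -0.176 and 0.0044 in PTN 1, PTN 2 and PTN 3. The long range had -0.268, -0.042 and -0.027 in those Control libraries, and 0.188, 0.157 and 0.011 in those PTN libraries. The short range held 8 members, 4 positive and 4 negative, with a median of -0.066. The long range held 7, of which 6 were positive, with a median of 0.39. Nupr1 and Ddit3, at 814 and 820 bases, had positive changes among short genes, whose trend ran the other way. With the trend removed their log2 fold changes were 1.5 and 1.14 (edgeR adjusted p = 0.0248 and 0.0155), and that of Vldlr 0.96 (adjusted p = 0.0118). The median of the ATF4 pathway factors was then 0.63, that of the sensors and Xbp1 0.22 against 0.44 without the correction, and that of the chaperones -0.0063.

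**Figure D5:**
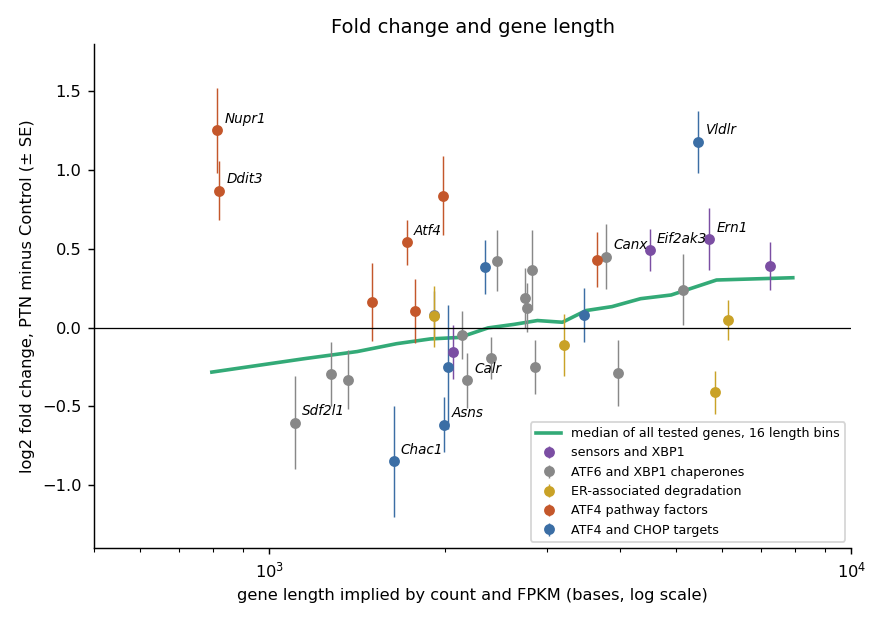
Log2 fold change, PTN minus Control, with its standard error, against the gene length implied by count and FPKM on a log axis, coloured by role. The line joins the medians of all tested genes in bins of equal size and rises with length, while Nupr1 and Ddit3 stand above it at the short end and Vldlr at the long end.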

How the data were processed

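The authors deposited 1 table that holds, for each gene and library, its expected count and its FPKM, per the file headers. Expected counts are unscaled estimates of reads or fragments per gene, deposited to 2 decimals, and FPKM values were scaled by the authors for gene length and depth. Aligner, counting program, build and annotation: not given in the sources used here. Columns were matched to samples by group initial and replicate number.

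Counts were rounded, filtered with filterByExpr (13161 of 22322 genes kept), scaled by TMM and tested with edgeR 4.0.16 (glmQLFit and glmQLFTest, R 4.3.3), PTN minus Control, with no covariate and Benjamini-Hochberg adjustment over all tested genes. The standard error is the log2 fold change over the square root of F. The biological coefficient of variation was 0.208. On simulated data the test was checked for the changes put in. The length trend was taken per library by lowess (span 0.3) and entered as an offset. No pair of libraries agreed within sampling noise (smallest chi-square per degree of freedom 12.4).

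The members and lists were chosen with earlier results of these data known. All members are named, with up to 4 called genes of each further list, or its gene of smallest p where none was called. Mars1 was added for its overlap with Ddit3, Edem2, Impact and Hspd1 were named after their values were seen, and genes not tested are named as such. Alternatives were other scalings, filters and thresholds, DESeq2 1.42.0, limma-voom (limma 3.58.1), a replicate block, the length offset and leaving out each library.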

Additional observations from a re-analysis of the deposited data

How the results depend on the processing

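All alternatives were run. Of 540 member values under them, 520 stayed on the same side of the threshold, 10 lost a call and 10 gained one. No called member changed sign, and 15 values of 9 members that were not called did, each with a log2 fold change under its standard error. DESeq2 called 1134 genes higher and 774 lower, 6 members among the higher and 1 among the lower. An adjusted p under 0.1 called 1089 and 824 genes, with 6 and 1 members. The members gained were the same in both, Atf4, Atf3 and Eif2ak3 higher and Asns lower. A log2 fold change of at least 1 left 427 genes higher and 209 lower, and the length offset called 1 member lower, Edem1. Leaving out 1 library gave 201 to 1273 genes higher and 130 to 904 lower, with 0 to 4 members higher and 0 to 1 lower. The 0 was without Control 3, and Vldlr was the only member called without Control 1 or Control 2. The median of the ATF4 and CHOP targets ranged over -0.33 without PTN 3 to 0.095 without PTN 1, and that of the chaperones over -0.11 to 0.062. The cause of these shifts was not tested. Such refits hold 5 libraries in place of 6.

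With the replicate number as a block 454 genes were called higher and 272 lower, and 2 members higher, Nupr1 and Vldlr. The labels do not say whether the numbers pair the libraries. Deviations of same-numbered PTN and Control libraries from their group means correlated at -0.506, 0.362 and -0.0049 across genes. These values differ in sign, so they do not settle it. Trib3 and Chac1 rest on 13 to 62 counts a library.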

Other observations

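Mitochondria have a protein folding response of their own, which can reach ATF4 through DELE1. Of 10 tested mitochondrial chaperones and proteases 0 were called by edgeR, DESeq2 or limma-voom and 0 had an unadjusted p under 0.05, while 8 log2 fold changes were negative and 2 positive, with a median of -0.20. Clpp, the matrix protease subunit of smallest p, had 34.2, 31.6 and 42.6 CPM in PTN cells, against 52.0, 42.5 and 44.7 CPM in Control cells (edgeR adjusted p = 0.199), the highest PTN value lying just above the lowest Control value. Hspd1, the chaperonin HSP60, had 636, 456 and 471 CPM in PTN against 490, 671 and 601 CPM in Control cells. Transcripts of mitochondrial DNA took 8.12, 8.1 and 3.97% of counts in the PTN libraries and 4.47, 7.47 and 5.76% in the Control libraries.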
